A study of Arabidopsis thaliana with 30 samples.

Results

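Leaves of the Arabidopsis catalase mutant cat2-1 were compared after 4 and after 2 days in air under short days, with 3 arrays at each time, 6 of the 30 arrays of the study. The comparison covered all 22746 probe sets of the Affymetrix ATH1 array that are not controls. A probe set is a group of oligonucleotides that reports 1 transcript or a few similar ones, and its value is a log2 signal. Plants of both genotypes grew in soil for 5 weeks at 3000 ppm CO2 with 8 h of light and 16 h of dark. They were sampled there or after transfer to air (400 ppm CO2), always 7 h into the light.

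The groups used were cat2-1 after 4 days and after 2 days in short days, wild-type Col-0 after 4 days and after 2 days in short days, and cat2-1 after 4 days and after 2 days in long days of 16 h light and 8 h dark. The cat2-1 and Col-0 plants sampled in high CO2 gave the level before transfer, and the remaining groups entered the fit for its estimate of the spread. Each array was a pool of 2 rosette leaves from different plants, and each group had 3 arrays. cat2-1 is 1 mutant line, and the sources used here give no second allele or complemented line. CAT2 had no single-gene probe set in the annotation used here, so the loss of its transcript was not checked.

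Catalase 2 is the main leaf catalase. It removes the hydrogen peroxide that peroxisomes release during photorespiration, a pathway that high CO2 holds back and that ordinary air allows. Transfer of cat2 from high CO2 to air therefore exposes its leaves to photorespiratory peroxide, without any added oxidant. Transcripts for chaperones, for enzymes that conjugate or glycosylate reactive compounds, and for calcium sensors and defence proteins are known to respond to such peroxide.

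The 6 leaf markers of the light reactions and carbon fixation were bright on the cat2 arrays, with group means between 11.06 and 14.11, and 0 of them were called between the days (limma, 1 at an unadjusted p below 0.05). The 2 root markers lay between 3.75 and 4.99 and the pollen marker between 3.64 and 3.76, near the bottom of the scale, which ran from 2.90 to 14.69. The guard cell marker FMA differed by 0.04 ± 0.15 (SE). Array medians over the whole study lay between 6.15 and 6.30. The 25S ribosomal RNA control was 7.37 to 8.56 at day 4 and 6.96 to 8.09 at day 2, and the actin 3′ minus 5′ difference was 2.12 to 2.35 at day 4 and 2.12 to 2.43 at day 2. With 25S as a covariate 194 probe sets were called in place of 216. In whole leaves, fewer cells of a type and less RNA per cell cannot be told apart.

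At day 4 the leaves of cat2 had lower transcript levels than at day 2 for 5 of 8 oxidative stress markers and 4 of 6 large chaperones and co-chaperones. The same held for 3 of 8 small heat shock proteins and 2 of 7 calmodulin-like calcium sensors, and few transcripts rose by a similar amount. With only the 6 arrays in the fit these counts were 3, 0, 0 and 1. The lists were chosen with earlier results of these data known, so the counts are a description and no test of the lists. Of 22746 probe sets, 216 were called (0.95%) by limma at a Benjamini-Hochberg adjusted p below 0.05. Of these, 177 fell (0.778%) and 39 rose (0.171%). The falls were the larger changes: 95 of them were at least 1 on the log2 scale, against 3 of the rises, and the median called fall was −1.06 against a median called rise of 0.53. Among probe sets with exactly 1 gene in the annotation used here, 95 fell and 20 rose.

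The arrays of the groups did not overlap for 170 of the 177 falls and 39 of the 39 rises. Over all probe sets 15.3% separated in this way, 5.5% with every day 4 array lower and 9.8% with every day 4 array higher. A count of 1900 probe sets (8.35%) passed an unadjusted p below 0.05, and the median difference over all probe sets was 0.01. Of the called probe sets, 77 falls and 1 rise were called again whichever of the 6 arrays was left out. The counts were 93 without day 4 replicate 2, 103 without day 2 replicate 1, 106 without day 2 replicate 2 and 137 without day 4 replicate 3. With only the 6 arrays in the fit, 124 were called, 111 of them falls.

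**Figure D1:**
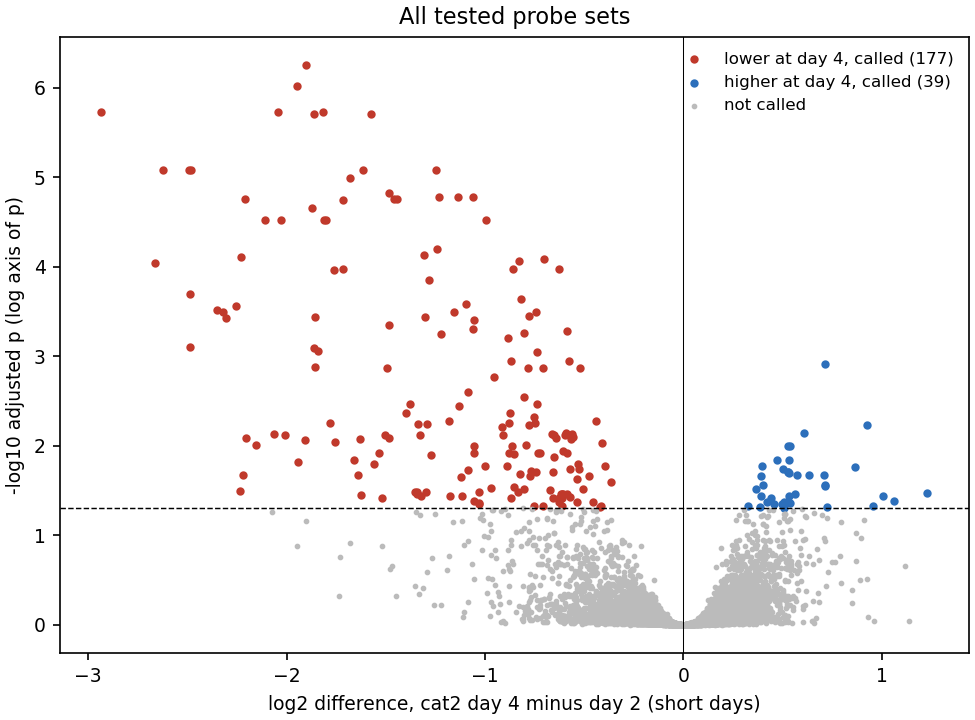
Log2 difference of cat2 day 4 minus day 2 in short days (horizontal axis) against −log10 of the limma adjusted p (vertical axis), 1 point for each of 22746 probe sets, with the threshold of 0.05 as a dashed line. The 177 called falls reach below −2, while the largest of the 39 called rises is 1.23.

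The largest fall of a named gene was that of CML37, a calmodulin-like calcium sensor known to respond to wounding and drought. Its log2 signal was 4.32, 4.11 and 4.21 on the day 4 arrays, against 6.89, 6.58 and 6.64 on the day 2 arrays. The 2 sets of arrays lay far apart, and those of day 4 were near the high CO2 mean of 3.79 ± 0.20 (SD, n = 3). The difference was −2.49 ± 0.27 (SE, limma adjusted p = 8.4e-06). The related sensor CML38 measured 6.05, 5.00 and 5.49 at day 4, against 7.22, 7.09 and 6.68 at day 2, and fell by 1.48 ± 0.23 (adjusted p = 0.00045). These were 2 of the 7 calmodulin-like genes measured. Of the other members, CML42 had the largest difference, −0.36 ± 0.20 (adjusted p = 0.73), and the median of the 7 was −0.24. With only the 6 arrays in the fit, 1 of the 7 was called.

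Other genes among the 12 largest falls of single genes code for secreted, regulatory and metabolic proteins. AT4G37290, which codes for a small secreted peptide precursor of a family that amplifies immune responses, measured 5.26, 4.57 and 4.94 at day 4, against 7.13, 6.66 and 7.93 at day 2. It fell by 2.32 ± 0.34 (adjusted p = 0.00032). AT1G66090, coding for a TIR-NBS protein of the disease resistance class, measured 6.09, 6.05 and 5.53 at day 4, against 8.20, 7.96 and 8.28 at day 2. Day 4 arrays were lower throughout for both genes, as the choice of the 12 required, and AT1G66090 fell by 2.25 ± 0.33 (adjusted p = 0.00027).

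AT3G22060 codes for a secreted protein with DUF26 domains, related to cysteine-rich receptor-like kinases. Its arrays read 7.09, 6.95 and 7.76 at day 4, against 9.29, 9.54 and 9.11 at day 2, a fall of 2.04 ± 0.20 (adjusted p = 1.9e-06). AT3G02840, an armadillo-repeat protein known as an early elicitor-responsive gene, read 4.72, 4.20 and 4.42 at day 4, against 6.45, 6.59 and 6.94 at day 2. Its fall was 2.21 ± 0.26 (adjusted p = 1.7e-05). For AT3G22060 every day 4 array stayed above its high CO2 mean of 5.63 ± 0.01, and AT3G02840 did so more narrowly, against a high CO2 mean of 4.04 ± 0.13.

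AT4G39670, a glycolipid transfer protein, measured 7.94, 7.73 and 7.87 at day 4, against 10.30, 10.22 and 9.62 at day 2, and fell by 2.20 ± 0.44 (adjusted p = 0.0082). It was called in 3 of the 6 fits that left out an array. AT1G26380, a berberine bridge enzyme-like oxidase of indole defence metabolism, was the most variable of the 12, with 6.25, 5.67 and 4.58 at day 4, against 7.85, 7.27 and 8.09 at day 2. Its fall of 2.23 ± 0.52 had an adjusted p of 0.032, and it was called in 1 of the 6 fits that left out an array. AT1G05575, of unknown function, fell by 2.35 ± 0.35 (adjusted p = 0.0003). Among the 77 falling probe sets with no gene in the annotation used here, 261449_at fell by 2.93 ± 0.29 and 249770_at by 2.66 ± 0.36.

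**Figure D2:**
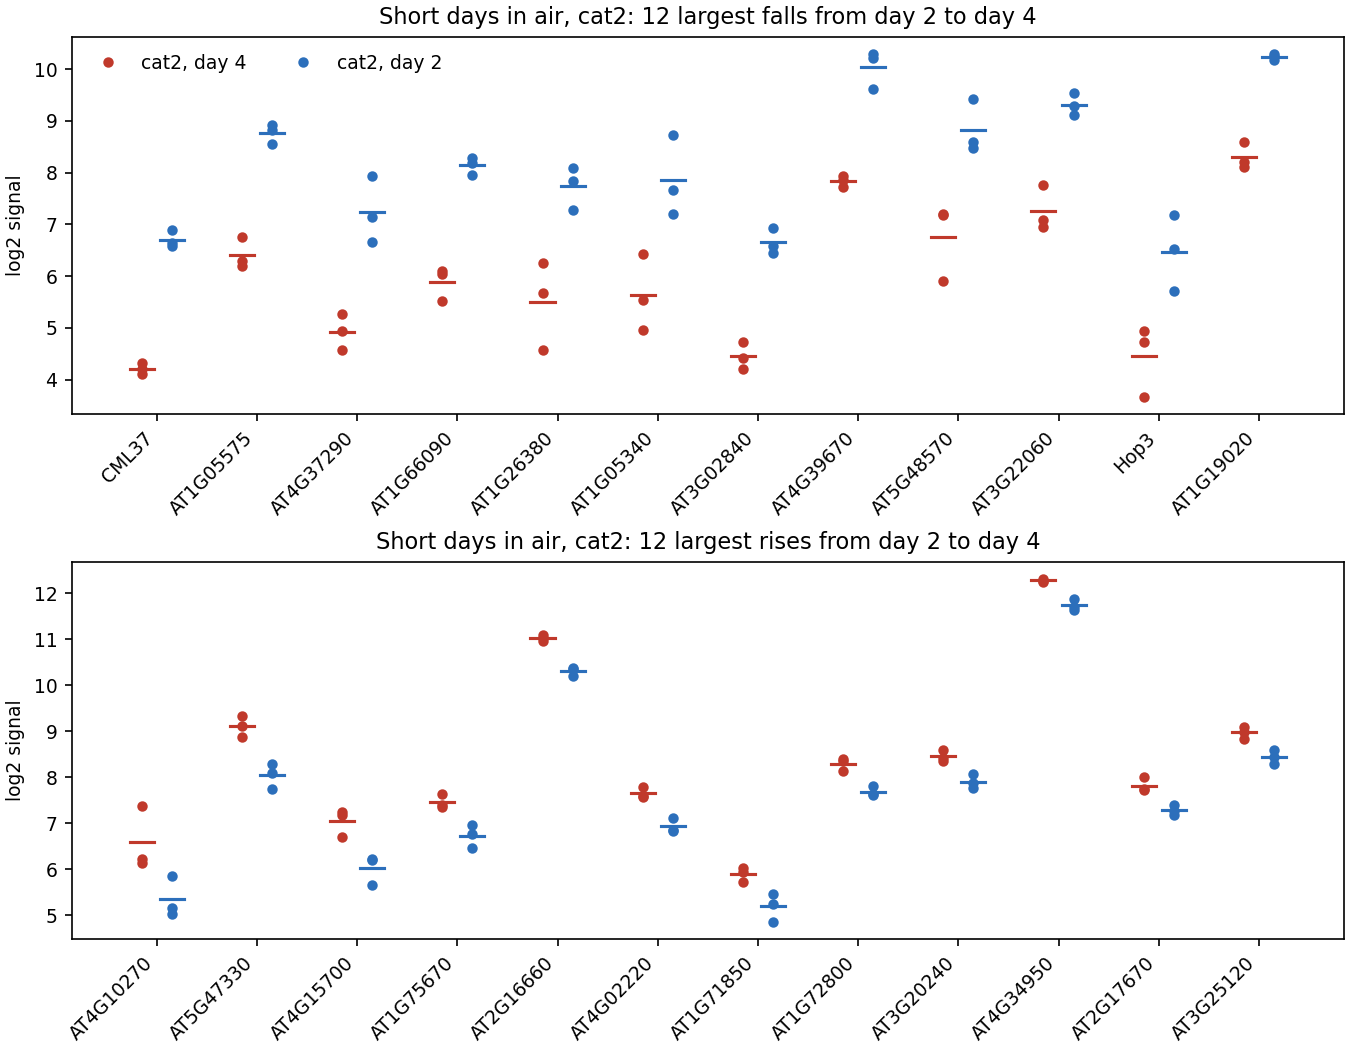
Log2 signal of each array (points) and group mean (bars) for the 12 largest called falls (top) and the 12 largest called rises (bottom) of single genes in cat2 in short days, with day 4 left of day 2. The groups do not overlap for any gene shown, a condition of the choice, and the falls are larger than the rises.

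Of 6 large chaperones and co-chaperones 4 fell and 0 rose, with a median of −1.34 over the 6, where the median over all probe sets was 0.01. AT5G48570, the heat-inducible FK506-binding isomerase ROF2, measured 7.20, 5.90 and 7.18 at day 4, against 9.43, 8.59 and 8.47 at day 2, and fell by 2.06 ± 0.40 (adjusted p = 0.0074). Hop3, which links Hsp70 to Hsp90, measured 4.95, 3.67 and 4.73 at day 4, against 7.18, 6.53 and 5.71 at day 2, and fell by 2.03 ± 0.25 (adjusted p = 3e-05). Day 4 replicate 2 was the lowest array for both, and day 2 replicate 1 the highest.

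Fes1A, a partner of cytosolic Hsp70 in heat tolerance, fell by 1.31 ± 0.17 (adjusted p = 7.4e-05), with 9.55, 9.22 and 9.78 at day 4, against 11.08, 10.98 and 10.40 at day 2. AT2G20560, a DnaJ co-chaperone, fell by 1.38 ± 0.25 (adjusted p = 0.0034). The 2 Hsp70 genes measured in this list differed less: Hsp70-2 by −0.34 ± 0.31 (adjusted p = 0.91) and AT3G09440 by −0.33 ± 0.12 (adjusted p = 0.31). Only 6 of the 19 genes of the list were measured, so these values do not speak for Hsp70 genes as a class. The count of 4 was 2 without day 4 replicate 2. In a limma fit of only the 6 arrays it was 0, with 5 at an unadjusted p below 0.05.

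Of 8 small heat shock proteins, which hold unfolding proteins in solution, 3 also fell, with a median of −0.36 over the 8. AT5G51440, a mitochondrial member, measured 9.20, 8.90 and 9.14 at day 4, against 10.66, 10.57 and 9.86 at day 2. It fell by 1.28 ± 0.18 (adjusted p = 0.00014) and yet stayed far above its high CO2 mean of 4.05 ± 0.18. AT2G29500, a cytosolic class I member, fell by 1.53 ± 0.32 (adjusted p = 0.012), with 8.45, 8.09 and 8.98 at day 4, against 10.45, 10.15 and 9.52 at day 2. AT1G53540, of the same class, measured 5.03, 4.24 and 5.83 at day 4, against 7.91, 6.79 and 5.97 at day 2, and fell by 1.86 ± 0.31 (adjusted p = 0.0013). Day 4 replicate 3 lay just under day 2 replicate 3. The other 5 ranged from −0.40 ± 0.19 for AT5G37670 to 0.11 ± 0.18 for AT4G21870. In a limma fit of only the 6 arrays 0 of the 8 were called, with 3 at an unadjusted p below 0.05. Of 6 probe sets for 5 genes of endoplasmic reticulum folding 0 were called (1 at an unadjusted p below 0.05). The largest difference was −0.76 ± 0.22 for BZIP60 (adjusted p = 0.13), a transcription factor of the unfolded protein response.

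Of 8 genes used as markers of oxidative stress, 5 fell, and all 8 had a negative difference, with a median of −1.52. In Col-0 over the same days 6 of the 8 had a negative difference, with a median of −0.24, and 0 were called. The test between genotypes of the change over time called 0 of the 8, though all 8 values were negative, with a median of −1.07. AT1G05340, a small cysteine-rich membrane protein, measured 6.44, 5.53 and 4.96 at day 4, against 8.74, 7.66 and 7.20 at day 2, and fell by 2.22 ± 0.49 (adjusted p = 0.021). AT1G19020, a short stress-induced protein, fell by 1.94 ± 0.41 (adjusted p = 0.015), with 8.58, 8.20 and 8.11 at day 4, against 10.29, 10.19 and 10.25 at day 2. The zinc finger repressor STZ measured 8.82, 7.90 and 8.25 at day 4, against 9.75, 9.85 and 10.06 at day 2, and fell by 1.56 ± 0.33 (adjusted p = 0.016).

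WRKY6, a transcription factor of senescence and defence, had tight arrays of 7.58, 7.57 and 7.70 at day 4, against 9.12, 9.30 and 8.88 at day 2, and fell by 1.48 ± 0.17 (adjusted p = 1.5e-05). It was the only one called of the 6 WRKY genes found by symbol in the annotation used here, which may miss others of the family. WRKY53 had a difference of −1.47 ± 0.48 (adjusted p = 0.22). GSTU25 completed the 5 and is described with its family. Of the 3 members not called, AT2G41380 differed most, by −0.96 (adjusted p = 0.31). NDB2, a mitochondrial NAD(P)H dehydrogenase, differed by −0.58 ± 0.24 (adjusted p = 0.47). The count of 5 was 1 without day 2 replicate 1, day 2 replicate 2, day 4 replicate 2 or day 4 replicate 3, and 3 in a fit of only the 6 arrays.

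Most enzymes that conjugate reactive compounds were not called. Of 11 tau class glutathione transferases 2 fell and the median was 0.00. GSTU25 measured 6.06, 4.14 and 4.82 at day 4, against 7.85, 8.02 and 5.61 at day 2, so that day 4 replicate 1 lay above day 2 replicate 3. It fell by 2.16 ± 0.43 (adjusted p = 0.0098), and GSTU22 by 0.65 ± 0.14 (adjusted p = 0.02). Of 47 UDP-glycosyltransferases 2 fell and 0 rose, with a median of 0.00. UGT73B5 measured 7.54, 5.82 and 6.70 at day 4, against 8.94, 8.67 and 7.98 at day 2, and fell by 1.84 ± 0.30 (adjusted p = 0.00087), and UGT73B4 fell by 1.05 ± 0.25 (adjusted p = 0.042). Without day 2 replicate 1, day 2 replicate 2 or day 4 replicate 2, the transferase count was 0 and the glycosyltransferase count 1. In a limma fit of only the 6 arrays both counts were 0, with 2 transferases and 7 glycosyltransferases at an unadjusted p below 0.05. Of 6 genes of the detoxification and electrophile response, AT2G41730 was the only call, with a fall of 1.00 ± 0.21 (adjusted p = 0.017).

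Several lists and families that respond to air, light or growth had no measured member called over these days. They were 6 antioxidant enzymes (median 0.05, with the largest difference 0.36 ± 0.14 for SAPX), 4 photorespiration genes, 26 cytochromes P450, 14 expansins, 9 xyloglucan transferases, 25 photosystem subunits, 15 ribosomal proteins, 20 beta-glucosidases, 6 anthocyanin genes, 4 genes of abscisic acid, cold and dehydration and 4 of sulfur assimilation. Over the 27 lists and families without a call, 11 of 163 probe sets passed an unadjusted p below 0.05. The lists were measured only in part: 6 of 29 antioxidant genes, 4 of 19 for photorespiration and 6 of 22 for anthocyanin. For abscisic acid, cold and dehydration it was 4 of 29, and for sulfur assimilation 4 of 18. The families held only single-gene probe sets found by symbol, so members without one were not counted. In the sugar starvation list AT3G15450 fell by 1.18 ± 0.22 (adjusted p = 0.0053), 1 of 4, and among 9 ATG8 genes, which build the autophagosome, ATG8H fell by 0.63 ± 0.15 (adjusted p = 0.038). ATG8H was called in 1 of the 6 fits that left out an array, and AT3G15450 in all 6.

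The rises were small. AT4G10270, a wound-responsive family protein, measured 7.38, 6.23 and 6.15 at day 4, against 5.87, 5.03 and 5.17 at day 2, and rose by 1.23 ± 0.29 (adjusted p = 0.034). AT5G47330, an alpha/beta hydrolase, rose by 1.06 ± 0.25 (adjusted p = 0.041), with 9.12, 8.88 and 9.33 at day 4, against 8.28, 8.10 and 7.76 at day 2. AT4G15700, a CC-type glutaredoxin, rose by 1.01 ± 0.24 (adjusted p = 0.036), with 6.71, 7.25 and 7.17 at day 4, against 6.22, 6.21 and 5.67 at day 2. For each of these 3 genes every day 4 array lay above every day 2 array, which was a condition of the choice. Of the 6 fits that left out an array, 3 called AT4G10270, 1 called AT4G15700 and none called AT5G47330.

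AT4G15700 was 1 of 13 CC-type glutaredoxins, small redox proteins found in land plants that join TGA factors in gene control. The 13 ranged from −0.99 to 1.12 with a median of 0.19, and 4 of them had a negative difference. Among the 13, the only call was AT4G15700. AT4G15680 and AT4G15660, which lie near it in locus order, had differences of 1.12 ± 0.37 (adjusted p = 0.22) and 0.91 ± 0.24 (adjusted p = 0.068). These genes are close relatives, so their probe sets may share signal. The other 9 of the 12 largest rises lay between 0.53 and 0.72. AT4G02220, with a MYND zinc finger, was called in every fit that left out an array, and rose by 0.71 ± 0.12 (adjusted p = 0.0012), with 7.58, 7.79 and 7.60 at day 4, against 6.84, 6.86 and 7.12 at day 2.

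Genes that air or the mutation had raised were then followed over the same interval. They were chosen by means over day 4 and day 2 together, so a gene can enter through its level on 1 day alone and must then differ between the days. The counts below are therefore a description, with no test. Of 413 probe sets at least 1 higher in cat2 in air than in high CO2, 91 fell (22.03%) and 5 rose. Of these 413, 288 were at least 1 higher on each day, of which 35 fell and 4 rose, with a median of −0.29. Another 111 were at least 1 higher at day 2 but not at day 4, of which 56 fell, and 14 at day 4 but not at day 2, of which 1 rose. Of 79 probe sets at least 1 lower in air, 0 were called in either direction (4 at an unadjusted p below 0.05), and the median was −0.02. The share of 22.03% was 13.4% without day 4 replicate 2.

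Of 230 probe sets at least 1 higher in cat2 than in Col-0 over both days, 68 fell (29.6%) and 2 rose. The 2 that rose were AT4G10270 and AT5G47330. For 159 of the 230 the excess was at least 1 on each day, and of these 30 fell and 1 rose, with a median of −0.40. For 61 it was at least 1 at day 2 but not at day 4, among them CML37 and AT1G66090, and 38 of these fell. For 10 it was at least 1 at day 4 but not at day 2, and 1 of these rose. The median excess over Col-0 was 1.34 at day 4 and 1.95 at day 2. Of 40 probe sets at least 1 lower in cat2, 0 were called over time (1 at an unadjusted p below 0.05). The share of 29.6% was 15.9% without day 2 replicate 1 and 16.0% without day 4 replicate 2.

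**Figure D3:**
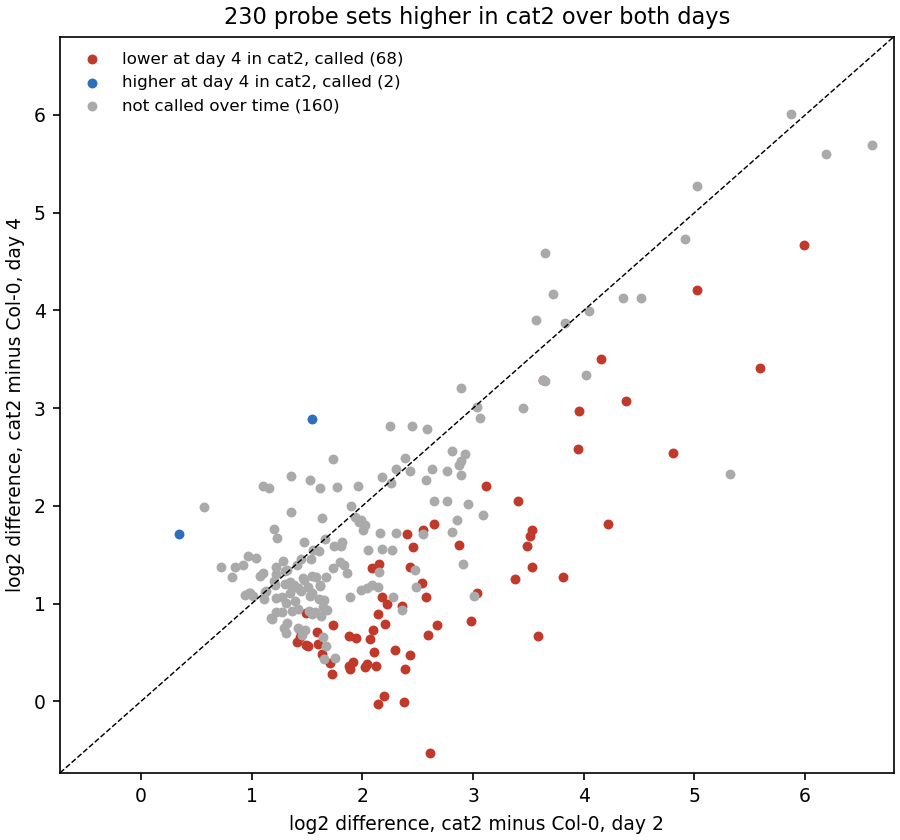
Excess of cat2 over Col-0 (log2) at day 4 (vertical) against day 2 (horizontal) in short days, for the 230 probe sets at least 1 higher in cat2 over both days. The dashed line marks equal excess. The 68 called lower at day 4 in cat2 lie below it, the 2 called higher lie above it, and the 160 not called lie on both sides. Of all 230, 178 had a smaller excess at day 4 than at day 2.

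Among probe sets with exactly 1 gene, the 8 largest gains over Col-0 did not move alike. AT5G51440, AT2G41730 and AT2G29500 fell, as given above, while 5 were not called. UGT73B1, a glycosyltransferase, measured 8.84, 8.81 and 9.02 at day 4, against 9.26, 9.31 and 8.75 at day 2, a difference of −0.22 with a 95% interval of −0.57 to 0.14. AT1G10585, a basic helix-loop-helix factor, measured 9.43, 9.11 and 9.35 at day 4, against 10.04, 10.13 and 8.39 at day 2, a difference of −0.23 (−1.06 to 0.61). AT4G01870 differed by −0.40 (−1.10 to 0.30), AT5G16980, an alkenal reductase relative, by −0.29 (−0.96 to 0.38) and AT1G09500, a cinnamyl alcohol dehydrogenase relative, by −0.12 (−0.998 to 0.759). Day 2 replicate 3 was low for AT1G10585 and AT1G09500, and leaving out other arrays turned their sign. The 5 largest losses of single genes, CHI among them, were not called, and CHI varied from 5.18 to 10.35 among the day 4 arrays.

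**Figure D4:**
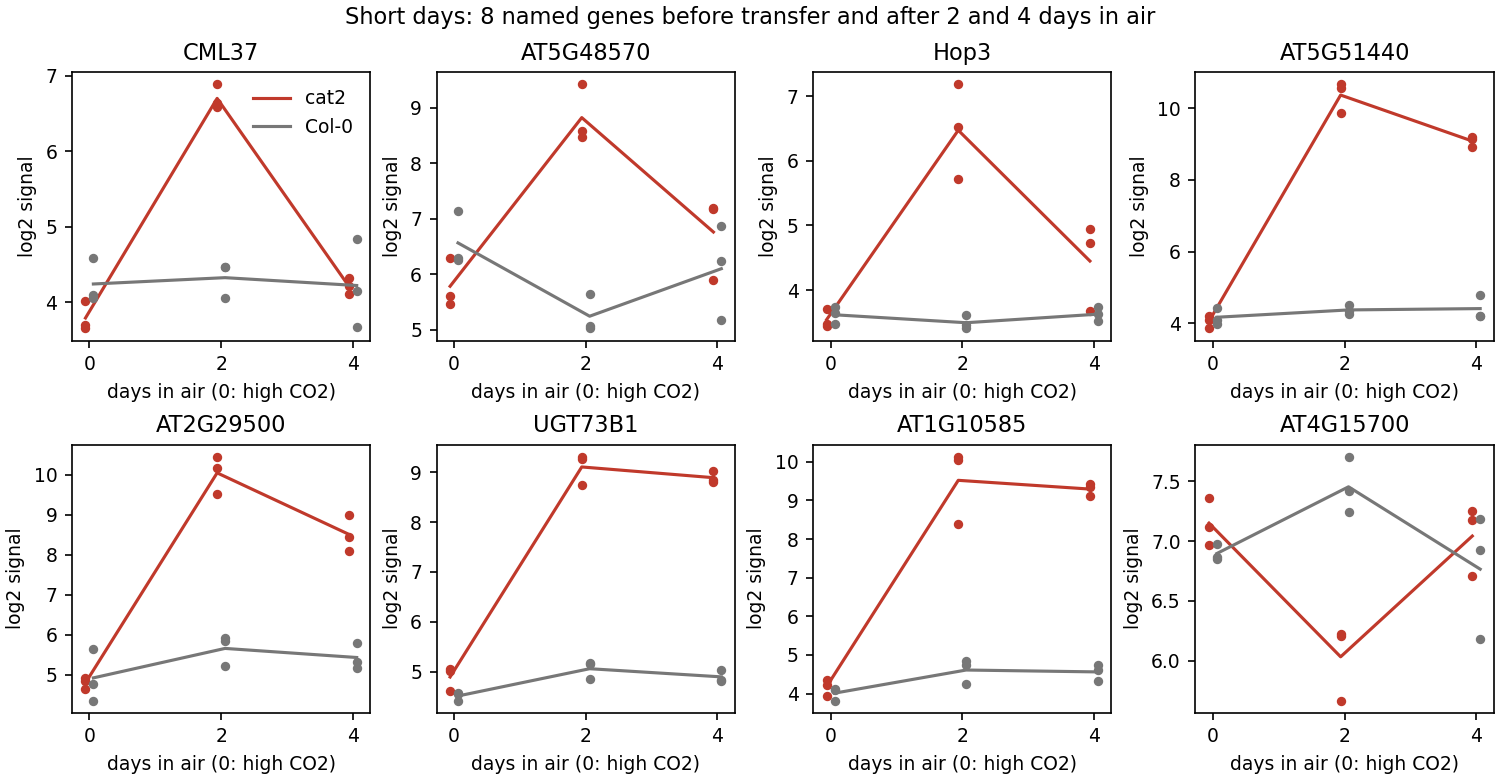
Log2 signal of single arrays (points) and group means (lines) in cat2 and Col-0 in high CO2 (day 0) and after 2 and 4 days in air, short days, for 8 named genes. CML37 is back at its Col-0 level at day 4, AT5G51440 stays high, and AT4G15700 dips at day 2 in cat2. The cat2 means of UGT73B1 and AT1G10585 differ little between day 2 and day 4. The day 2 arrays of AT1G10585 lie far apart in cat2, so its change is uncertain.

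In Col-0 the same interval gave 11 called probe sets (0.0484%), 10 lower (0.044%) and 1 higher (0.0044%), and 2872 (12.6%) at an unadjusted p below 0.05. A test of the difference between genotypes in the change over time called 78 probe sets (0.343%), 54 lower (0.237%) and 24 higher (0.106%) in cat2. AT5G48570 had an interaction of −2.92 ± 0.57 (adjusted p = 0.019), since its mean in Col-0 was 6.10 at day 4 and 5.24 at day 2. CML37 had −2.39 ± 0.39 (adjusted p = 0.0039) and Hop3 −2.16 ± 0.36 (adjusted p = 0.005). In Col-0 Hop3 stayed between 3.41 and 3.74 on all 6 arrays. AT1G66090 and AT3G02840 had interactions of −2.17 and −1.93.

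Of the called single genes, AT4G15700 had the largest positive interaction, 1.70 ± 0.34 (adjusted p = 0.02), with 6.77 at day 4 and 7.45 at day 2 in Col-0. AT4G15680 had a larger one that was not called, 2.19 ± 0.52 (adjusted p = 0.063, or 0.027 with a block for the day 4 arrays that share a replicate number). AT4G02220 (0.89 ± 0.17), AT3G45880 (0.89 ± 0.17), AT3G20240, a mitochondrial carrier (0.86 ± 0.19), and AT1G15420 (0.74 ± 0.15) followed among the called genes. In a fit of only the 12 arrays of the 4 groups, 1 probe set was called, so these calls rest on a spread estimated over all 30 arrays. The count lay between 19, without cat2 day 4 replicate 2 or cat2 day 2 replicate 2, and 166, without Col-0 day 4 replicate 3. Of the 78 calls, 17 were made whichever of the 12 arrays was left out, among them CML37, Hop3 and AT3G22060.

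The excess of cat2 over Col-0 at each day shares arrays with the change over time, and its values are given beside it. The excess was 4.67 at day 4 and 5.99 at day 2 for AT5G51440, 2.05 at day 4 and 3.40 at day 2 for Fes1A, and 0.66 at day 4 and 3.58 at day 2 for AT5G48570. For CML37 it was −0.01 at day 4 and 2.38 at day 2, and for AT1G66090 −0.03 at day 4 and 2.14 at day 2. Over all probe sets 384 (1.69%) were called between the genotypes at day 4 and 3225 (14.2%) at day 2. Arrays of both genotypes enter these counts, so their difference is no measure of change in cat2 alone. Over time 216 probe sets were called in cat2 and 11 in Col-0. At an unadjusted p below 0.05 (limma) it was 1900 (8.35%) in cat2 and 2872 (12.6%) in Col-0.

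In cat2 moved to long days, 387 probe sets were called between the days (1.7%), 250 lower (1.1%) and 137 higher (0.602%). The change over time differed between short and long days for 642 probe sets (2.82%), of which 427 were higher (1.88%) and 215 lower (0.945%) in short days. The count was 234 without short-day day 4 replicate 2 and 278 without short-day day 2 replicate 2, and 212 were called whichever of the 12 arrays was left out. STZ fell in short days and rose by 1.44 ± 0.33 in long days (adjusted p = 0.025), so that the difference was −3.01 ± 0.47 (adjusted p = 0.0016). Its long-day means were 8.81 at day 4 and 7.36 at day 2. For AT5G48570 the difference was −2.62 ± 0.57, for AT1G05575 −2.50 ± 0.49, for AT1G66090 −2.40 ± 0.47 and for AT3G48650, annotated as a pseudogene, −2.65 ± 0.51.

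AT5G51440 was near its high CO2 level in long days, at 4.23 on day 4 and 4.32 on day 2. AT2G41730 fell in long days too, by 1.85 ± 0.21, as did AT2G29500, by 1.42 ± 0.32, and the test between day lengths called neither (0.85 ± 0.30, adjusted p = 0.14, and −0.12 ± 0.45, adjusted p = 0.94). Among the positive differences, AT4G15680 had 2.24 ± 0.52 (adjusted p = 0.019), AT4G10270 2.11 ± 0.41 (adjusted p = 0.0053), AT2G32220 1.88 ± 0.34, AT2G23910 1.71 ± 0.35 and AT3G57490 1.62 ± 0.26. Of the 13 CC-type glutaredoxins 4 were higher and 1 lower in this test.

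**Figure D5:**
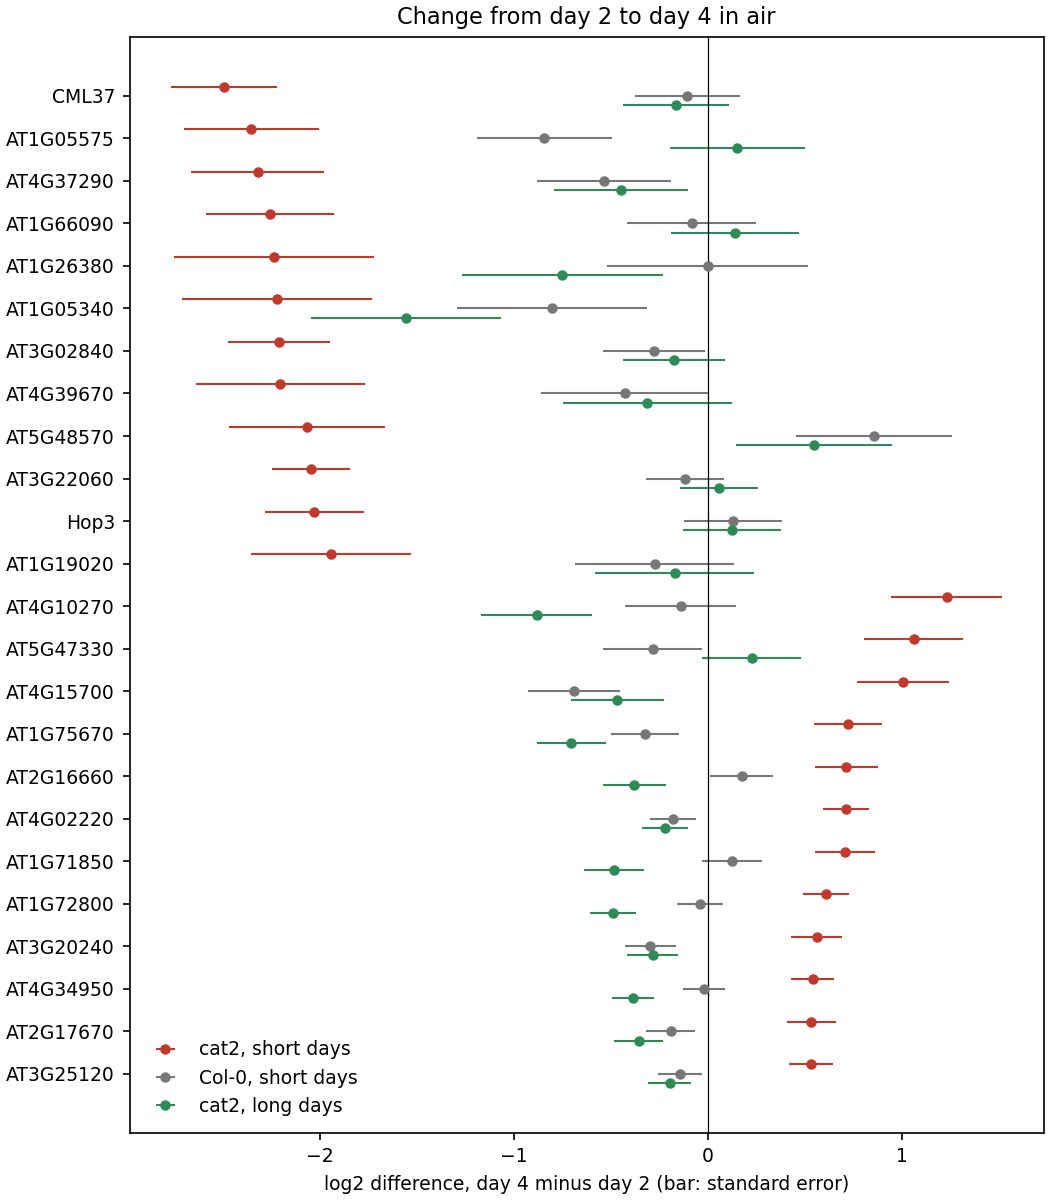
Log2 difference of day 4 minus day 2 (bars: standard error) for the 12 largest falls and 12 largest rises of cat2 in short days, with the same genes in Col-0 in short days and in cat2 in long days. Most of the other points sit closer to 0 or on the other side of it, as with AT5G48570. The genes were chosen by their change in cat2 in short days, so smaller differences in the other groups follow in part from the choice.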

How the data were processed

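Total RNA of rosette leaves was hybridised to Affymetrix ATH1 arrays, 1 per pool of 2 leaves. Per the submitters' processing notes the deposited log2 values were made with RMA in affy, whose versions are not given in the sources used here, and they were used as deposited. Of 22810 probe sets 64 were controls. Of the 22746 tested, 13513 had exactly 1 gene in the platform annotation, 503 had several and 8730 were not listed. Symbols were updated through RefSeq for 13436. A mean for each of 10 groups was fitted to all 30 arrays in limma 3.58.1 (R 4.3.3), with eBayes and Benjamini-Hochberg adjustment over all 22746, and calls were made at an adjusted p below 0.05. The number of arrays limits the precision.

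Named genes were the 12 largest called falls and 12 largest called rises of single genes without overlap between arrays. To these came the 5 largest per direction for each interaction, and the 8 largest gains and 5 largest losses by genotype. Called members of lists, uncalled members for some lists only, and at most 2 unlisted probe sets per direction completed them. Of 497 genes in 34 lists 125 were measured, and 19 families were taken from symbols. Members and lists were chosen with earlier results of these data known. No 2 arrays were identical, and correlations within the groups compared were 0.992 to 0.995. Replicate numbers did not pair the cat2 arrays over time: residuals of day 4 and day 2 arrays of the same number correlated at 0.61, −0.14 and −0.18. Under other numbers, day 4 replicate 2 correlated with day 2 replicate 3 at 0.49, and day 4 replicate 3 with day 2 replicate 2 at 0.57. No block for these matches was fitted. Between cat2 and Col-0, residuals of arrays of the same number correlated at 0.62, 0.31 and 0.63 at day 4, each array's best match, and at −0.08, −0.10 and −0.33 at day 2. The numbers thus paired the day 4 arrays across genotypes, from the data alone, and a block for these pairs gave 398 day 4 calls between genotypes in place of 384. The treatment label of the Col-0 high CO2 arrays gave a lower CO2 figure than the protocol, and the protocol's was used. The fit was tested on simulated data. The alternatives that moved the counts most are given with their effects in the closing text, with some of the others. Python 3.11.15, pandas 2.3.3 and matplotlib 3.10.9 served for tables and figures.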

Additional observations from a re-analysis of the deposited data

Results flagged for a closer look

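Each result here was picked out because the change from day 2 to day 4 in cat2 in short days differed from that in another group by a test of the difference itself. Groups of 3 arrays were too small for a check of single outlying arrays.

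Between cat2 and Col-0 the change differed for 78 probe sets. Among named genes called over time in cat2, the log2 difference in change (cat2 minus Col-0) was negative for AT5G48570 (−2.92), CML37 (−2.39), AT1G66090 (−2.17), Hop3 (−2.16), AT3G02840 (−1.93), AT3G22060 (−1.93), UGT73B5 (−1.90), Fes1A (−1.35) and AT5G51440 (−1.32). It was positive for AT1G15420 (0.74), AT3G20240 (0.86), AT4G02220 (0.89) and AT4G15700 (1.70).

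Between short and long days in cat2 the change differed for 642 probe sets. The log2 difference in change (short minus long days) was negative for STZ (−3.01), AT3G48650 (−2.65), AT5G48570 (−2.62), AT1G05575 (−2.50), AT1G66090 (−2.40), CML37 (−2.33), Hop3 (−2.15), AT3G22060 (−2.10), AT3G02840 (−2.03), AT4G37290 (−1.87), AT3G15450 (−1.83), AT1G53540 (−1.61), CML38 (−1.52), WRKY6 (−1.43), Fes1A (−1.27), AT5G51440 (−1.20) and ATG8H (−0.92). It was positive for AT3G25120 (0.73), AT3G20240 (0.85), AT2G17670 (0.89), AT4G34950 (0.93), AT4G02220 (0.94), AT1G15420 (1.08), AT2G16660 (1.09), AT1G72800 (1.10), AT1G71850 (1.19), AT1G75670 (1.43), AT4G15700 (1.47) and AT4G10270 (2.11).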

How the results depend on the processing

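For the genes named in the change over time, the sign was recomputed under 15 or 16 alternatives each. AT2G41380 and the losses by genotype other than CHI were left out of this. The sign turned for AT1G10585, AT1G09500, AT4G21870, FMA and CHI, none of them called, and for no called gene. AT4G21870 (0.11 as reported) and FMA (0.04) turned without day 2 replicate 1 or day 4 replicate 3, and CHI (−0.92) without day 4 replicate 3 (0.59). With single arrays left out, AT1G10585 ranged from −0.794 to 0.0798, positive without day 2 replicate 1 (0.0355) or 2, and AT1G09500 ranged from −0.875 to 0.259, positive without day 2 replicate 1 or 2 (0.258) and without day 4 replicate 2 (0.0377) or 3 (0.0633). Over 16 alternatives the 216 calls over time in cat2 in short days ranged from 93 to 510. They were 93 to 229 when single arrays were left out (89 to 193 falls and 3 to 36 rises). They were 124 with only the arrays compared (111 falls, 13 rises), 128 with a replicate block as well (116 falls, 12 rises), 114 with 1 probe set per gene (94 falls, 20 rises) and 510 with array weights (309 falls, 201 rises). Array weights thus put 39.4% of calls among the rises. The replicate block in the fit of all arrays gave 208 (176 falls, 32 rises), and only replicate 1 correlated best with its own number. Probe sets with a mean log2 of at least 5 gave 197 calls, and further quantile normalization gave 217. Arrays centred on their median gave 203, and eBayes with trend and robust settings gave 212.

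The 78 calls between genotypes became 1 with only the arrays compared, 29 with 1 probe set per gene, 1465 with array weights (51.0% higher) and 66 with the replicate block. With a replicate block for the day 4 arrays of cat2 and Col-0 alone, chosen after seeing the data, they were 100, and 77 of the 78 remained. The 78 were 83 after centring (45.8% higher, against 30.8% as deposited) and 19 to 166 when single arrays were left out. The 642 between day lengths became 339 with 1 probe set per gene, 1842 with array weights, 664 with the block and 234 to 864 with arrays left out. The 11 in Col-0 became 0 with only the arrays compared (limma, 3242 at an unadjusted p below 0.05), 18 after centring, 567 with array weights, 2 with 1 probe set per gene, 14 with the block and 1 to 18 with arrays left out. The share of air gains that fell was 12.6% for gains of at least 0.5, 27.9% for gains of at least 2 and 13.4% to 25.9% with arrays left out. The share of genotype gains that fell was 19.1% for gains of at least 0.5, 33.8% for gains of at least 2 and 15.9% to 35.1% with arrays left out. The 25S covariate was chosen after seeing the data. The cause of these differences was not tested, apart from the fewer probe sets or arrays that some settings use.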

Other observations

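Of the called single-gene probe sets, 37 were called whichever array was left out, and some of these have not been described above. They were chosen after their values were seen. B120, an S-locus lectin receptor-like kinase, measured 5.37, 4.36 and 4.65 at day 4, against 7.00, 6.61 and 6.18 at day 2, and fell by 1.80 ± 0.22 (limma adjusted p = 3e-05). AT5G46080, a protein kinase, measured 5.83, 5.49 and 5.26 at day 4, against 7.60, 7.05 and 7.37 at day 2, and fell by 1.81 ± 0.23. For both, every day 4 array lay below every day 2 array.

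AR781 measured 7.66, 6.91 and 7.55 at day 4, against 8.85, 8.95 and 9.03 at day 2, and fell by 1.57 ± 0.16 (adjusted p = 1.9e-06), where its difference was −0.33 in Col-0 in short days and 0.76 in cat2 in long days. AT2G32030, an acetyltransferase of the GNAT family, fell by 1.76 ± 0.24, and AT1G17860, a Kunitz-type protease inhibitor, fell by 1.13 ± 0.13. AT1G07160, a protein phosphatase 2C, had a smaller fall of 0.78 ± 0.12.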
